A study of Nematostella vectensis with 47 samples.

Results

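Chromatin accessibility was compared between gastrulae of the sea anemone Nematostella vectensis raised in a DNA methylation inhibitor and gastrulae raised in its solvent. The members were chosen by their labels: 3 ATAC-seq libraries labelled GSK and 2 labelled DMSO, which are 5 of the 47 samples of the series and 5 of its 9 ATAC-seq libraries. All 36284 merged peaks counted in these libraries were tested. Each library was made from whole embryos of Massachussets genotype (as the label spells it) at 25 h post fertilization (hpf). Gametes of several males and females were pooled, the zygotes of each cross were divided between the treatment and the control, and they were kept for 25 h in 5 µM GSK-3484862 (GSK), an inhibitor of the maintenance methyltransferase DNMT1, or in 0.1% DMSO. No cells were sorted, so that a change in the share of nuclei of a cell type and a change of accessibility within each nucleus cannot be told apart. Coordinates are 1-based on the build of the files, genes carry RefSeq locus identifiers, and marker genes of the gastrula were not checked here.

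In Nematostella, as in many invertebrates, 5-methylcytosine (5mC) lies mostly at CpG dinucleotides within the bodies of transcribed genes, whereas promoters are largely free of it. DNMT1 copies the methylation pattern onto the new strand after replication, and its inhibition lets methylation dilute as cells divide. ATAC-seq uses the Tn5 transposase to cut open chromatin, and a peak is a stretch of the genome in which cuts accumulate. Accessible stretches are typically promoters and enhancers, and methylated gene bodies are typically closed.

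Counts in peaks summed to between 24059685 and 33980509 per library, and all accessibility levels below are CPM (counts set relative to library size, here with TMM factors). The DMSO libraries had a Pearson r of 0.97 across peaks, which are not independent replicates, and GSK replicates 2 and 3 had an r of 0.96. GSK replicate 1 stood apart from the others, with r values of 0.95 with the other GSK libraries and of 0.94 with the DMSO libraries, and it also had the fewest counts in peaks. Results that move without it are given with both values. The labels say that replicates came from different broodstocks, so that p-values measure the spread between such batches of embryos, with only 2 libraries in DMSO.

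The question was which peaks gain or lose accessibility when methylation is lost. Of the 36284 peaks, 522 were more accessible (open peaks, 1.44%) and 83 were less accessible (closed peaks, 0.229%) in GSK than in DMSO, by edgeR's quasi-likelihood F test at FDR < 0.01. Together these were 1.67% of the peaks. The log2 fold change (given below ± its standard error) of open peaks ran from 0.59 to 3.14 around a median of 1.44. Closed peaks had a median of -0.83, and the largest decrease was -1.85. The CPM ranges of the groups did not overlap in 521 of the open and in all 83 of the closed peaks. Over all peaks, 14.6% had all 3 GSK libraries above both DMSO libraries and 13.1% had them below. Calls depended on which libraries entered the fit. Without DMSO replicate 1 or 2, 214 or 207 peaks were called open and 8 or 18 closed, without GSK replicate 1, 737 and 157, without GSK replicate 2, 400 and 51, and without GSK replicate 3, 342 and 30. With the 4 libraries of F1 gastrulae added to the fit, edgeR called 0 open and 0 closed peaks (463 peaks at an unadjusted p under 0.05), and DESeq2 called 104 and 2.

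**Figure D1:**
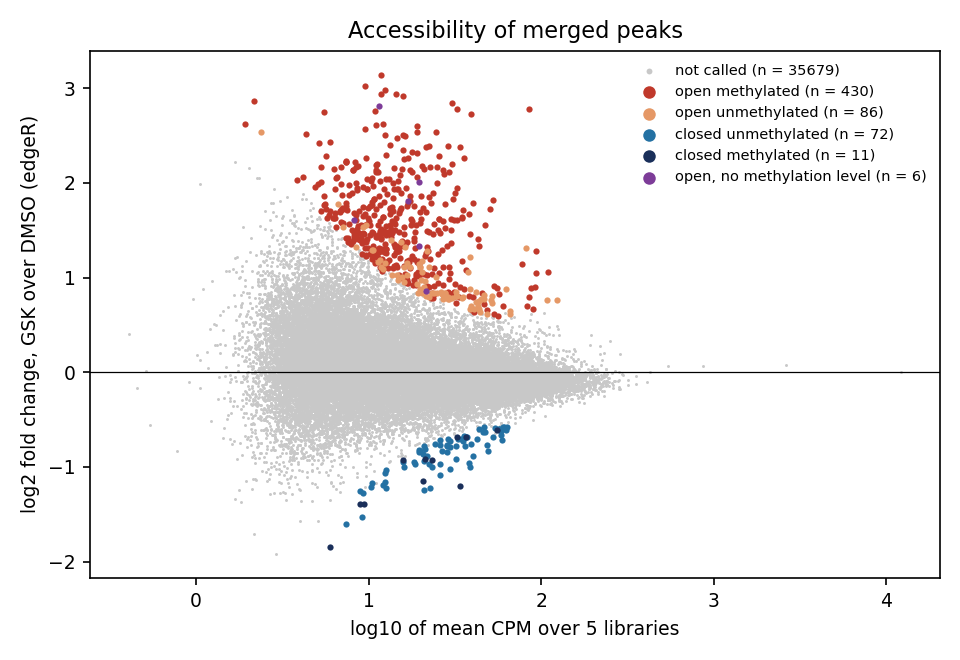
Each point is 1 merged peak, with the log10 of its mean CPM over the 5 libraries on the x axis and the log2 fold change of GSK over DMSO on the y axis. Coloured points are the 522 open and 83 closed peaks at FDR < 0.01, by baseline methylation, and most open methylated peaks lie at lower mean CPM than the closed peaks.

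The baseline methylation of each peak was measured in another assay and other animals, a Nanopore library of untreated gastrulae, as the share of CpG calls that were 5mC (mCG). A level was available for 35420 peaks, of which 4414 were methylated (20% mCG or more) and 31006 unmethylated. The open peaks comprised 430 methylated and 86 unmethylated peaks and 6 without a level. The closed peaks comprised 11 methylated and 72 unmethylated peaks. The median change on the log2 scale was 1.54 in open methylated, 0.86 in open unmethylated, -0.80 in closed unmethylated and -0.93 in closed methylated peaks. Without GSK replicate 1, the unmethylated open peaks numbered 228 and the methylated open peaks 497.

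Over all merged peaks, from 10% mCG upward, the change in accessibility was larger in each higher bin of baseline mCG. The bins below 10% did not follow that order. Among the 26585 peaks with less than 1% mCG, 74 opened (0.278%) and 52 closed, and the median log2 fold change was -0.03. The medians were -0.05 at 1 to 5% mCG (0.191% open), -0.03 at 5 to 10% mCG (0.262% open) and 0.02 at 10 to 20% mCG. The share of open peaks was 1.97% (30 of 1521) at 20 to 50% mCG and 5.28% (42 of 795) at 50 to 80% mCG, with medians of 0.12 and 0.32. In the 2098 peaks with at least 80% mCG, 358 opened (17.1%), 0 closed, and the median was 0.63. Of these highly methylated peaks 89.2% had a log2 fold change above 0, most of them without being called. Their median log2 ratio to the DMSO mean was 0.76 in GSK replicate 1, 0.49 in replicate 2 and 0.50 in replicate 3, so that all 3 libraries lay above the DMSO mean. Most of these 2098 peaks entered the set through GSK peak lists alone, which fixes part of this upward lean and of the order of the bins. How large that part is was not tested. Among peaks listed in all 5 libraries the medians were 0.27 at 50 to 80% mCG and 0.15 at 80% mCG or more.

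The share of counts in highly methylated peaks was computed per library. Of the 2098 peaks with at least 80% mCG, 1211 were listed in 1, 363 in 2 and 241 in 3 GSK libraries and in no DMSO library, so that the choice of peaks itself leans this share toward GSK and it is no separate support. Peaks with at least 80% mCG took 1.28% of all counts in DMSO replicate 1 (95% Wilson interval 1.27 to 1.28%) and 1.23% in DMSO replicate 2 (1.23 to 1.23%). They took 2.39% in GSK replicate 1 (2.39 to 2.40%), 2.03% in GSK replicate 2 (2.02 to 2.03%) and 2.06% in GSK replicate 3 (2.05 to 2.06%), intervals which cover counting error only. The groups did not overlap, and the mean share was 1.72-fold higher in GSK. An exact permutation test over the 5 libraries gave a two-sided p of 0.20, the smallest that 2 against 3 libraries allow. Peaks under 1% mCG took 74.5% of counts on average in DMSO (s.d. 0.163, n = 2) and 72.9% in GSK (s.d. 0.811, n = 3; exact permutation p = 0.20).

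**Figure D2:**
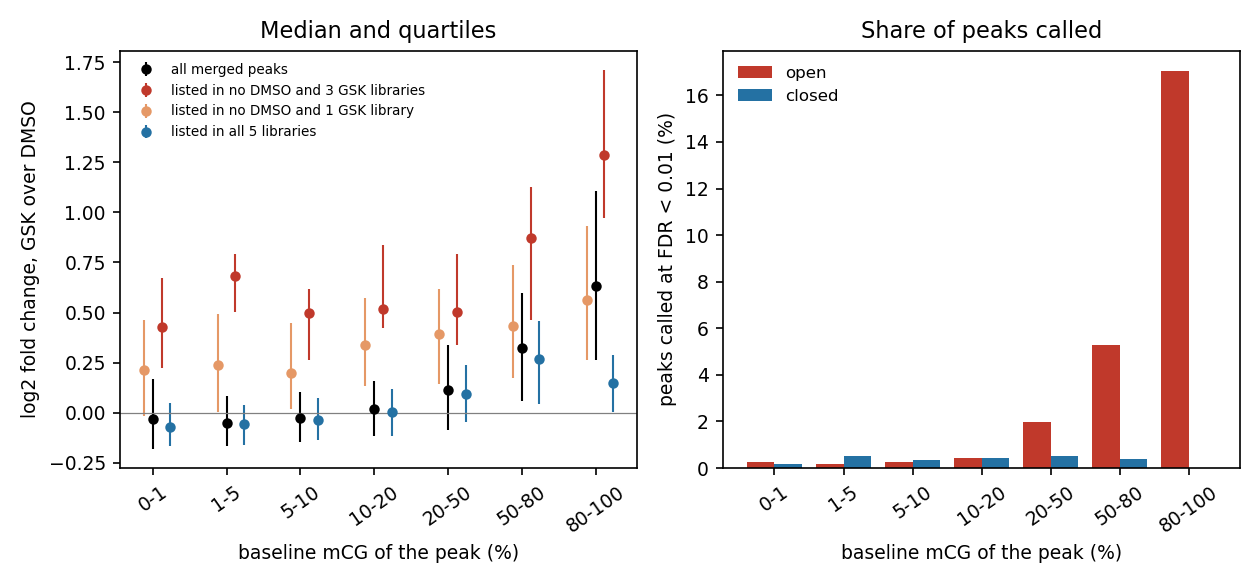
Left, the median log2 fold change (points) and quartiles (lines) of peaks in bins of baseline mCG, for all merged peaks and for peaks grouped by the libraries that list them. Right, the percentage of peaks in each bin called open or closed at FDR < 0.01, which for open peaks runs from 0.278% under 1% mCG to 17.1% at 80% mCG or more.

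The authors also called peaks in each library alone, with 24957 and 24122 peaks in the DMSO lists and 22252, 24962 and 27262 in the GSK lists. Of the open methylated peaks, 382 of 430 (88.8%) overlapped no listed peak of either DMSO library. The share was 56.6% in methylated peaks that were not called and 24.5% over all merged peaks. Such absence was common in highly methylated peaks, open or not. Of the 2098 peaks with at least 80% mCG, 1211, 363 and 241 were in no DMSO list and in 1, 2 and 3 GSK lists. Of the 382 open methylated peaks in no DMSO list, 184 were listed in all 3 GSK libraries, 121 in 2 and 77 in 1. A further 33 open methylated peaks were listed in all 5 libraries. Of the open unmethylated peaks, 34 of 86 (39.5%) were listed in no DMSO library. That share was lower than in open methylated peaks, but higher than in unmethylated peaks that were not called (18.5%). Of the closed unmethylated peaks, 38 of 72 were still listed in all 5 libraries and 15 were listed in both DMSO libraries and no GSK library.

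Every merged peak was listed in at least 1 of the 5 libraries, so a peak absent from both DMSO lists entered the set through a GSK list and had to lean upward. The lean need not be of the same size at different DMSO levels, and its part in the values below was not tested. Among peaks listed in 3 GSK libraries and no DMSO library, the median change was 0.43 on the log2 scale under 1% mCG (n = 212, median 10.1 CPM in DMSO) and 1.28 at 80% mCG or more (n = 241, median 7.79 CPM). With 1 GSK library and no DMSO library the medians were 0.21 (n = 4266, 4.67 CPM) and 0.56 (n = 1211, 3.60 CPM). In the opposite case, peaks listed in 1 DMSO library and no GSK library, the medians were -0.16 under 1% mCG (n = 3405), -0.20 at 20 to 50% mCG (n = 160) and -0.13 at 80% mCG or more (n = 101), so that they lay close together. Among peaks listed in all 5 libraries, which needed no listing in 1 group alone, the medians were -0.07 under 1% mCG (n = 10435) and 0.15 at 80% mCG or more (n = 53, of which 1 was called open), and 0.27 at 50 to 80% mCG (n = 126, of which 10 were open).

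The open methylated peaks were of usual width but weak in DMSO. Their median width was 666.5 bp, against 680 bp over all merged peaks, 747 bp in unmethylated peaks that were not called and 447 bp in methylated peaks that were not called. Their median level was 6.43 and 6.25 CPM in the DMSO libraries and 18.3, 17.9 and 19.8 CPM in GSK replicates 1, 2 and 3. Unmethylated peaks that were not called had medians of 16.7 and 16.2 CPM in DMSO, and of 16.5, 16.5 and 16.3 CPM in GSK. The open methylated peaks thus had medians in GSK near those of unmethylated peaks that were not called, a level that the call itself partly sets. Methylated peaks that were not called had medians of 6.17 and 5.88 CPM in DMSO, and of 8.75, 7.47 and 7.40 CPM in GSK. Closed unmethylated peaks started higher, at 41.2 and 39.2 CPM, and had medians of 22.4, 21.5 and 21.2 CPM in GSK.

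The unmethylated classes differed in the methylation of their surroundings. In open methylated peaks mCG averaged 88.0% around the centre and 41.9% at 2500 to 3000 bp from it, so that they sat within a methylated block. Methylated peaks that were not called had 59.7% at the centre and 42.2% at that distance. The methylated classes thus differed at the centre, but hardly at that distance. In closed unmethylated peaks it averaged 0.349% at the centre and 47.4% at the same distance, an unmethylated gap within methylated sequence. Open unmethylated peaks had 0.445% at the centre and 1.86% at that distance. Unmethylated peaks that were not called had 9.55% there, which is lower than around closed unmethylated peaks. CpG density had a median of 31.1 CpGs per kb in open methylated peaks and of 28.1 in methylated peaks that were not called, against 37.2 over all merged peaks, 39.5 in closed unmethylated and 39.7 in open unmethylated peaks.

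**Figure D3:**
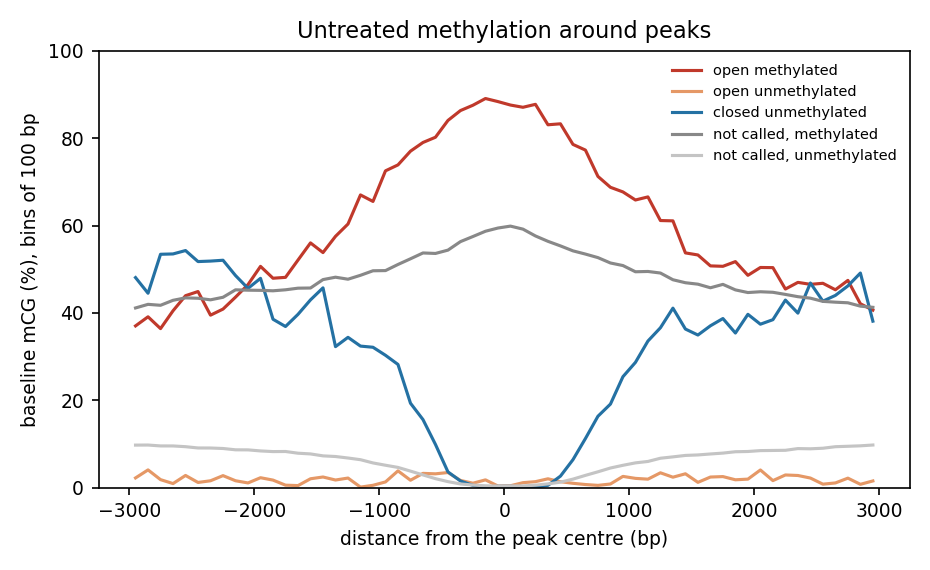
Lines show mCG (%) in untreated gastrulae in bins of 100 bp, by distance from the peak centre up to 3000 bp on either side, for 5 classes of peaks. Open methylated peaks lie on a rise of methylation and closed unmethylated peaks in a gap flanked by methylated DNA, whereas open unmethylated peaks lie in unmethylated surroundings.

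Open methylated peaks lay inside genes. The centre of 383 of 430 lay in the body of a protein-coding gene and over 500 bp from a gene end, 18 lay within 500 bp of a gene end (either end, since strand was not used) and 29 were intergenic. Of the 3973 methylated peaks that were not called, 74.6% lay in gene bodies, against 89.1% of the open methylated peaks. Those not called had a lower median mCG, 69.8% against 93.8%. Of all 2098 peaks with at least 80% mCG, open or not, 1872 lay in gene bodies, so that this position was common to highly methylated peaks. In the 347 open methylated peaks within a single gene whose direction was given by control CAGE start sites, the median distance from the start was 4058 bp, or 34.0% of the gene's length. Over 5 equal parts of the gene, counted from its start, they numbered 101, 93, 76, 56 and 21, so that the part farthest from the start held the fewest. Methylated peaks that were not called (2704 in such genes) numbered 851, 516, 491, 493 and 353.

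The genes that held open peaks mostly had a single such peak: 389 genes had 1, 33 had 2 and 4 had 3. Of the open methylated peaks, 88 had another within 20 kb. Across the 15 chromosomes the share of methylated peaks that opened ran from 4.93% on chromosome 14 (10 of 203) to 14.9% on chromosome 2 (60 of 404), a spread that was not tested.

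The largest increases were found in peaks that were close to the lowest levels in DMSO. The peak in LOC5519692 on chromosome 4 (7203774 to 7204092) had 1.26 and 2.85 CPM in DMSO and 17.7, 13.1 and 23.98 CPM in GSK replicates 1 to 3. Baseline mCG in this peak was 95.5%, and its log2 fold change was 3.14 ± 0.33 (edgeR adjusted p = 1.7e-09). The lowest GSK value was above the highest DMSO value, as was the case in all of the peaks described here by name as open.

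A stronger peak lay in LOC5513362 on chromosome 13 (2858547 to 2859348), with 7.07 and 5.85 CPM in DMSO and 35.8, 47.7 and 55.8 CPM in GSK. Its log2 fold change was 2.85 ± 0.20 (edgeR adjusted p = 2.2e-14), 96.5% of its CpG calls were methylated at baseline, and it was listed in all 3 GSK and in no DMSO library. RNA-seq of LOC5513362 gave a log2 fold change of 0.29 (adjusted p = 0.17), which did not pass the test.

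In LOC5517237 on chromosome 9 (3170774 to 3171208) the levels were 3.16 and 3.24 CPM in DMSO and 21.5, 25.2 and 26.1 CPM in GSK, a log2 fold change of 2.92 ± 0.25 (edgeR adjusted p = 9.6e-12). The replicates of each group lay close together. The peak in LOC5509515 on chromosome 10 (3600630 to 3601261) had 8.94 and 5.52 CPM in DMSO and 38.7, 56.7 and 53.6 CPM in GSK, with a log2 fold change of 2.78 ± 0.20. It was the only one of the 10 largest increases with a CAGE cluster, that is a stretch in which capped 5′ ends of RNA accumulate. The cluster was listed in both GSK and in neither control CAGE library. Over all 430 open methylated peaks, 27 overlapped a CAGE cluster in both conditions, 14 in GSK only and 1 in control only. Most open methylated peaks thus overlapped no cluster.

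Not every large fold change was firm. The peak in LOC5515242 on chromosome 8 (7414926 to 7415149) had 0.36 and 0.54 CPM in DMSO and 4.81, 4.00 and 1.08 CPM in GSK, and its log2 fold change of 2.86 had a standard error of 0.63 (adjusted p = 0.0037). It was the only one of the 10 whose call was lost when 1 library was left out, with adjusted p up to 0.19. The peak in LOC5520065 on chromosome 3 (11374780 to 11374998) held 1 CpG and so had no methylation level, with 2.23 and 2.76 CPM in DMSO against 9.66, 21.6 and 21.6 CPM in GSK (2.82 ± 0.32 on the log2 scale). The other 9 had between 94.8 and 98.1% mCG, and none of the 10 was listed in a DMSO library.

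A peak outside the rule, chosen after its values were seen, reached a high level. In LOC5519703 on chromosome 4 (7376891 to 7378916) it had 18.4 and 19.0 CPM in DMSO and 108.6, 131.1 and 146.0 CPM in GSK, with 96.7% mCG at baseline over 58 CpGs. Its log2 fold change was 2.78 ± 0.16 (edgeR adjusted p = 6.8e-17). CAGE clusters overlapped this peak in both control and both GSK libraries. RNA levels of LOC5519703 were 183, 174 and 210 CPM in DMSO and 339, 291 and 328 CPM in GSK, without overlap, but the gene did not pass the test (log2 fold change 0.72, adjusted p = 0.025).

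The 4 genes with 3 open peaks showed both kinds of opening. LOC116606594 (chromosome 4), LOC5500603 (chromosome 7) and LOC5521620 (chromosome 2) are 27.9, 16.4 and 17.6 kb long, and each held 3 open methylated peaks. None of them passed the RNA-seq test, with log2 fold changes of 0.81, 0.15 and 0.08. In LOC5521620 the open peak with the highest level (12768556 to 12770525) had 12.9 and 11.3 CPM in DMSO and 35.8, 37.4 and 36.6 CPM in GSK, a log2 fold change of 1.59 ± 0.18. The unmethylated peak in the body of this gene near one of its ends (12756903 to 12758332), which overlapped CAGE clusters in all 4 libraries, had 62.7 and 79.2 CPM in DMSO and 59.3, 72.8 and 72.2 CPM in GSK, so that the groups overlapped there (log2 fold change -0.06, adjusted p = 0.94).

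LOC5502251 (chromosome 5, 108.9 kb) differed from these. None of its 33 peaks was methylated, 3 were open and 0 closed, and 26 had a log2 fold change above 0, with a median of 0.51. Most of these 33 peaks were in no DMSO list and entered the set through a GSK list, which leans them upward. How much of the 26 and of the median this fixes was not tested. Its open peak at 14832812 to 14834609 had 25.2 and 23.7 CPM in DMSO and 45.7, 41.8 and 40.3 CPM in GSK (0.80 ± 0.16 on the log2 scale, edgeR adjusted p = 7.9e-04). RNA of LOC5502251 rose from 2.01, 2.09 and 2.68 CPM in DMSO to 10.3, 10.6 and 11.2 CPM in GSK, a log2 fold change of 2.21 ± 0.22 (edgeR adjusted p = 0.0032).

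**Figure D4:**
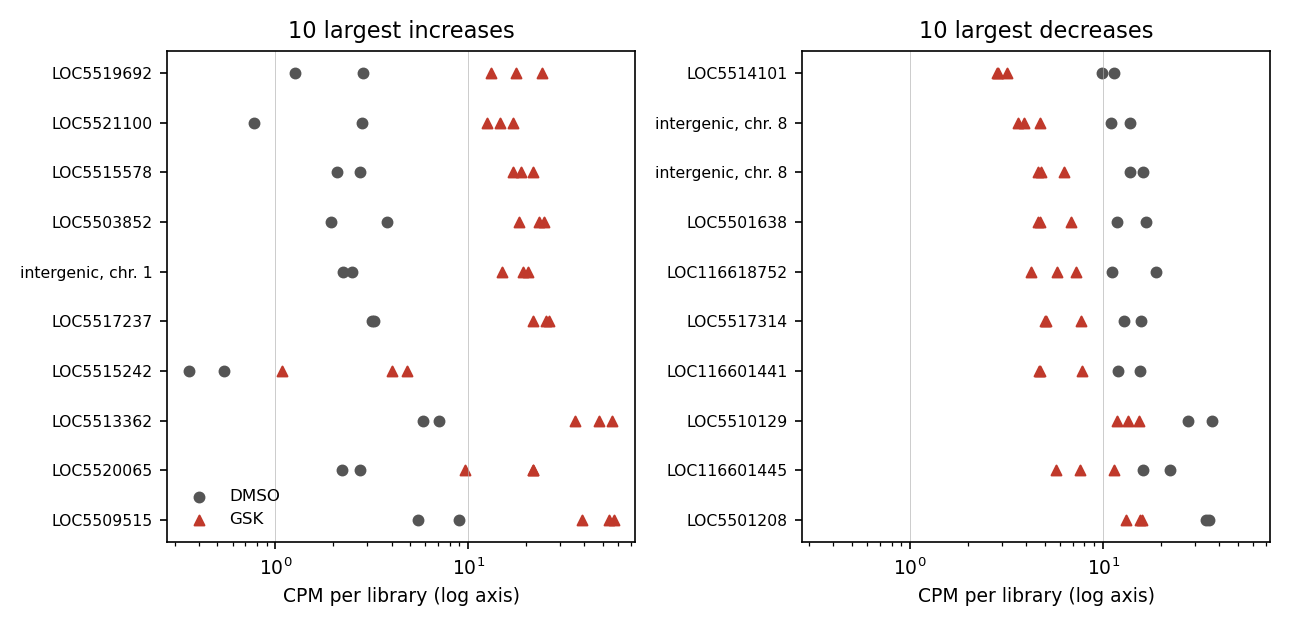
Points give the CPM of each library (log axis) for the 10 peaks with the largest increase and the 10 with the largest decrease, by the gene that contains or borders them, with circles for the 2 DMSO and triangles for the 3 GSK libraries. The groups do not overlap in any of the 20 peaks, which the choice of peaks requires, and the increases start from lower levels than the decreases.

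Open unmethylated peaks were spread over gene bodies (50 of 86), gene ends (9) and intergenic sequence (27). The 3 open peaks with the highest mean level were wide. The peak at an end of LOC5509145 on chromosome 2 (1432101 to 1434843), which at 20.1% mCG lay just inside the methylation threshold, had 70.3 and 62.3 CPM in DMSO and 125.8, 137.4 and 150.5 CPM in GSK (1.06 ± 0.15 on the log2 scale). The other 2 were unmethylated and intergenic, on chromosome 1 (15060302 to 15062730) with 90.5 and 83.2 against 141.1, 156.0 and 145.9 CPM, and on chromosome 10 (13880355 to 13882157) with 84.7 and 67.6 against 95.9, 135.4 and 157.7 CPM. GSK replicate 1 was the lowest GSK library in the last of these. None of the 5 unmethylated peaks with the largest increase (log2 fold changes of 1.53 to 2.54) remained called in all fits with 1 library left out.

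Genes with an open unmethylated peak in their body leaned upward in RNA-seq. Of the 46 tested, 32 had a log2 fold change above 0 and the median was 0.41, against -0.00 over the 16654 genes tested. Of these 46 genes 2 were called higher (LOC5502251 and LOC5513175) and 1 lower (LOC116604178), where 0.24% of all genes were called higher and 0.991% lower. All 3 GSK libraries were above all 3 DMSO libraries in 19 of the 46 (41.3%), against 13.3% of all genes. LOC5513175 had 7.57, 8.604 and 9.95 CPM in DMSO and 24.4, 21.9 and 22.0 CPM in GSK (1.35 ± 0.18 on the log2 scale, edgeR adjusted p = 0.0062).

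Genes with an open methylated peak in their body leaned slightly downward. Of the 356 tested, 217 were below 0, with a median of -0.08, and 19 were called lower and 3 higher, where 0.991% of all genes were called lower and 0.24% higher. All 3 GSK libraries were below all 3 DMSO libraries in 26.4% of them, against 12.8% of all genes. Of these 356 genes 342 (96.1%) were methylated, against 54.0% of all tested genes with a level. The paper reports that genes lowered by GSK were mostly methylated. A comparison with methylated genes alone was not made here. LOC5521009 was among those called lower, with 103, 91.2 and 72.8 CPM in DMSO, 32.2, 33.1 and 36.9 CPM in GSK and a log2 fold change of -1.41 ± 0.14 (edgeR adjusted p = 0.0032). Among those called higher, LOC5525232 had 15.0, 13.7 and 18.6 CPM in DMSO, 54.2, 36.7 and 51.2 CPM in GSK and a log2 fold change of 1.55 ± 0.20 (edgeR adjusted p = 0.0057). The calls rested on the RNA-seq libraries, and 10 genes were called lower without DMSO replicate 1, 31 without DMSO replicate 3 and 0 without any other single library, while DESeq2 called 58.

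Many closed peaks bordered gene ends. Of the 83 closed peaks, 38 were centred within 500 bp of a gene end (45.8%, against 29.4% of all merged peaks), 34 lay in gene bodies and 11 were intergenic, whereas 27 of the 522 open peaks (5.17%) were at a gene end. All merged peaks were weaker in DMSO than closed peaks, with medians of 13.9 and 38.0 CPM. Among unmethylated peaks listed in all 5 libraries, 26 of 38 closed peaks and 6612 of 13664 peaks that were not called lay at a gene end. Where control CAGE start sites gave the direction of a bordering gene, 26 closed peaks were at its start and 2 at its other end (92.9% at the start). Of the gene-end peaks that were not called, 5577 were at the start and 1097 at the other end (83.6% at the start). Starts were thus common at such genes whether a peak closed or not. The genes at the other 10 closed peaks had no direction. Of the open peaks at a gene end, 6 were at the start, 7 at the other end and 14 at genes without a direction. Of the 72 closed unmethylated peaks, 31 overlapped a CAGE cluster in both conditions, 3 in control only and 0 in GSK only, so start sites were still listed at most of those that had had them.

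The RNA-seq values of the bordering genes leaned downward. The 38 closed peaks at gene ends bordered 46 genes, all of them tested in RNA-seq, and 45 had a log2 fold change below 0, with a median of -1.13 (quartiles -1.83 and -0.76). Of the 46 genes 16 were called lower (34.8%, against 0.991% of all genes) and 0 higher. In 34 of the 46 (73.9%) all 3 GSK libraries were below all 3 DMSO libraries, against 12.8% of all genes. Across all RNA-seq fits, including DESeq2 and those with 1 library left out, 43 to 45 of the 46 genes were below 0. The calls were less stable: 28 genes were called lower without DMSO replicate 3, 12 without DMSO replicate 1, 2 without DMSO replicate 2, 3 without GSK replicate 1, 2 without GSK replicate 2 and 2 without GSK replicate 3, and DESeq2 called 34. Most of these genes were methylated in their body, 42 of 46 with at least 10% mCG, against 54.0% of all tested genes with a level.

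LOC5509388 on chromosome 3 had the largest RNA decrease of the 46 genes. Its closed peak (18056357 to 18057292, 0% mCG) had 34.9 and 40.7 CPM in DMSO and 18.1, 18.8 and 16.7 CPM in GSK, a log2 fold change of -1.08 ± 0.17 (edgeR adjusted p = 2.5e-05). Its RNA was at 208, 242 and 237 CPM in DMSO and at 21.5, 24.7 and 19.8 CPM in GSK, a log2 fold change of -3.41 ± 0.16 (edgeR adjusted p = 1.2e-04). The peak was listed in both DMSO libraries but only in replicate 1 of GSK, and the drop in RNA was larger than that in accessibility.

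LOC5509911 on chromosome 14 behaved in a like manner. Its closed peak (9135049 to 9136383) had 59.96 and 51.1 CPM in DMSO and 30.1, 24.6 and 28.3 CPM in GSK (-1.004 ± 0.15 on the log2 scale), and its RNA fell from 103, 108 and 93.5 CPM to 15.0, 16.6 and 17.1 CPM (-2.67 ± 0.12 on the log2 scale, edgeR adjusted p = 1.2e-04). It was chosen after its values were seen. LOC5518799 on the same chromosome (1886806 to 1887471) had 19.3 and 18.0 CPM in DMSO and 9.03, 8.43 and 7.63 CPM in GSK at its closed peak, which no GSK library listed, and its RNA had a log2 fold change of -1.98 ± 0.24 (edgeR adjusted p = 0.0049). In LOC5518247 on chromosome 1 (21240873 to 21241184) the peak had 13.7 and 17.6 CPM against 6.74, 8.43 and 5.08 CPM, and the RNA was at 28.4, 24.9 and 25.8 CPM against 14.1, 13.5 and 12.7 CPM (log2 fold change -0.9997, adjusted p = 0.0079).

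Other closed peaks at gene ends had RNA changes that did not pass the test. LOC5517314 on chromosome 9 (3849332 to 3849674) had 15.8 and 12.8 CPM in DMSO and 5.01, 5.06 and 7.63 CPM in GSK, and its RNA had a log2 fold change of -1.80 (adjusted p = 0.022). LOC116601441 on chromosome 5 (4270647 to 4271152) had 11.9 and 15.4 CPM against 7.81, 4.64 and 4.71 CPM, with an RNA log2 fold change of -1.12 (adjusted p = 0.033). The gene above 0 in RNA-seq was LOC116614605, at 0.79 (adjusted p = 0.34), with RNA of at most 3.03 CPM in every library. None of the 5 closed gene-end peaks with the largest decrease kept its call in every fit with 1 library left out, whereas all kept their direction.

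Where a peak bordered 2 genes, both could be lower. The peak on chromosome 4 (5427244 to 5428246) lay at the ends of LOC5502473 and LOC5502474, with 29.4 and 30.9 CPM in DMSO and 14.9, 19.0 and 15.1 CPM in GSK, and both genes were called lower, with log2 fold changes of -1.45 and -2.08. The peak on chromosome 14 (4304732 to 4306220) bordered LOC5516689, called lower at -1.42, and LOC5516690, at -0.23 (adjusted p = 0.47).

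The relation was also read from the side of expression, in the same libraries, across all end peaks and not only those called. The closed end peaks described above are among them, so that this is no separate observation. The 141 genes called lower in RNA-seq that had an end peak had 160 such peaks, with a median log2 fold change in accessibility of -0.27, and 134 of the 160 were below 0. The medians against the DMSO mean were -0.31, -0.25 and -0.25 in GSK replicates 1, 2 and 3. The 27 end peaks of the 22 genes called higher had a median of 0.17, and those of genes not called had a median of -0.06 (n = 9966). Of the end peaks of lower genes, 14 of 160 (8.75%) were closed and 0 open, against 0.261% closed in genes not called. In bins of RNA change the medians ran in order, from -0.38 for genes below -2 on the log2 scale (32 peaks) through -0.23 (from -2 to -1, 325 peaks) and -0.06 (-0.5 to 0.5, 8285 peaks) to 0.23 for genes at 2 or more (18 peaks). No correlation is given, and peaks of neighbouring genes are shared.

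**Figure D5:**
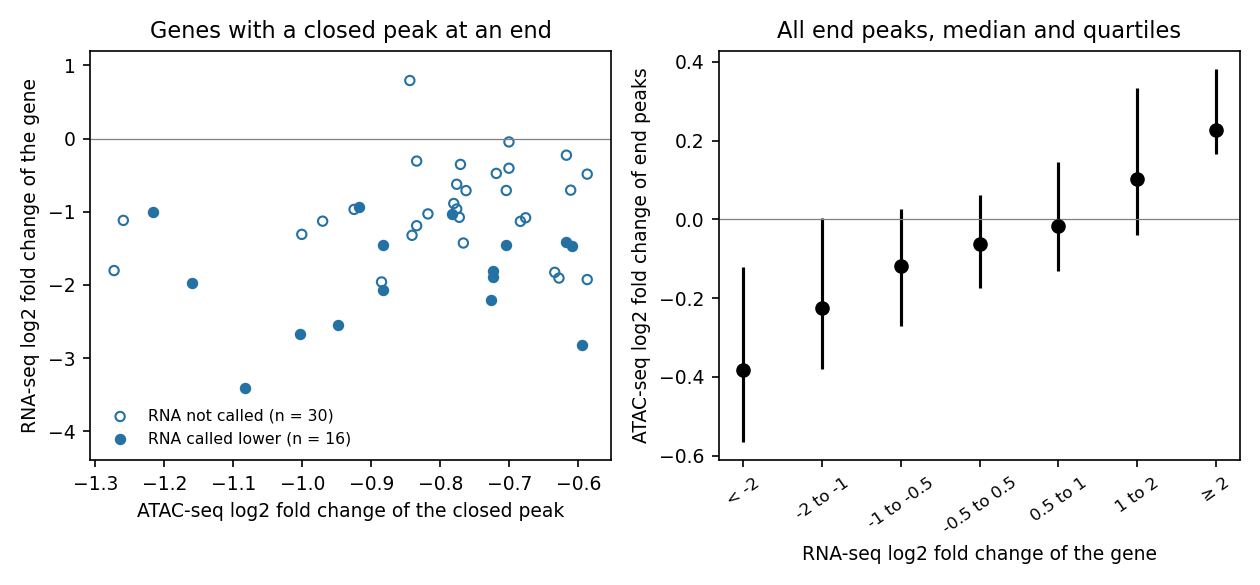
Left, each point is 1 of the 46 genes with a closed peak at an end, with the log2 fold change of the peak in ATAC-seq on the x axis and of the gene in RNA-seq on the y axis, filled for the 16 genes called lower. Right, the median (points) and quartiles (lines) of the ATAC-seq log2 fold change of all end peaks, by the RNA-seq log2 fold change of the gene, which run from -0.38 to 0.23.

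End peaks of the genes that opened inside were little different from those of other methylated genes. The 312 unmethylated end peaks of genes with an open methylated peak in the body changed by -0.09 on the log2 scale at the median, and 3 closed. The 5685 end peaks of other methylated genes had a median of -0.08, and 31 closed. Of the 46 genes with a closed end peak, 4 (8.70%) also held an open peak in the body, against 2.73% of the 11623 genes with any end peak. The 46 genes were also more often methylated (91.3%) than genes with an end peak that was not called (64.1%). Methylated genes alone were not compared. LOC5518247 and LOC5521321 held a closed end peak and an open peak in the body, and they were called lower in RNA-seq.

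The remaining closed peaks lay inside genes or between them. The largest decrease was at a methylated peak in LOC5514101 on chromosome 2 (12505737 to 12506181, 61.7% mCG), with 11.4 and 9.81 CPM in DMSO and 2.84, 2.83 and 3.16 CPM in GSK, a log2 fold change of -1.85 ± 0.36 (edgeR adjusted p = 5.7e-04). The 2 next largest were intergenic, both on chromosome 8. At 7168833 to 7169185 the levels were 11.04 and 13.8 against 3.904, 4.71 and 3.63 CPM, and at 5100327 to 5100692 they were 13.9 and 16.1 against 4.57, 4.78 and 6.25 CPM. LOC5501208 on chromosome 13 (4347254 to 4348467) had 35.6 and 33.9 CPM in DMSO and 13.1, 15.6 and 15.97 CPM in GSK (-1.22 ± 0.18 on the log2 scale), and among the 10 largest decreases it was the only peak called in every fit with 1 library left out. The 3 closed peaks with the highest mean level lost less, with log2 fold changes of -0.57 to -0.61.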

How the data were processed

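Per the labels, whole gastrulae at 25 hpf were used. Per the methods, the authors mapped reads with Chromap (which shifts insertion sites and removes duplicates), ran MACS3 on every library alone, joined the peaks with bedtools and counted insertions with featureCounts. The build of the files was matched by chromosome to the gene table of RefSeq assembly jaNemVect1.1, where 80.1% of CAGE clusters lay within 500 bp of a gene end against 11.9% after a shift by 1 chromosome. The deposited counts per merged peak and per RNA-seq gene were whole numbers without scaling, and which of the study's RNA-seq pipelines gave the latter is not given in the sources used here. The deposited peak lists give a fold enrichment (a ratio to local background) and -log10 q. The deposited CAGE signal per cluster was not used beyond the positions of clusters, which are from untreated and GSK gastrulae. For Nanopore, the deposited table holds per CpG how many calls were valid and how many of these were 5mC (counts). Of the per-sample columns, 0 were left unused.

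The test was edgeR 4.0.16 under R 4.3.3 (filterByExpr, then TMM, glmQLFit and glmQLFTest, Benjamini-Hochberg over all features, FDR < 0.01), with only the groups compared in the fit. No peak failed the filter. DESeq2 1.42.0 was the other tool, and intervals were handled in Python 3.11.15. Standard errors were derived from the fold change and the F statistic. RNA-seq levels are CPM of total counts. Methylation used CpGs with at least 10 valid calls and at least 3 such CpGs per peak (5 per gene, methylated from 10% mCG). A listed peak overlapped a merged peak by at least 1 base. On simulated data the pipeline recovered 91.5% of 200 peaks changed by 2 on the log2 scale among 36284 peaks, with 0 false calls, and 86% of 200 genes among 19231, with 5 false calls. That change is larger than the median of the open (1.44) and of the closed peaks (-0.83). The recovery of smaller changes was not measured.

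Named peaks were called peaks with CPM ranges that did not overlap and a mean of 1 CPM or more where they were higher: the 10 largest changes in each direction, the 5 largest open methylated, open unmethylated and closed gene-end peaks, the 3 highest in each direction and the peaks of the genes with most open peaks. The comparison, gene groups and members were chosen with earlier results of these data known. Gene ends of either strand replaced the planned gene starts, and the planned gene lists by product name were not used here. The fit, scaling, filter, library and threshold alternatives are given with the closing observations.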

Additional observations from a re-analysis of the deposited data

How the results depend on the processing

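With 1 ATAC-seq library left out at a time, open peaks numbered 207 to 737 and closed peaks 8 to 157. Open peaks made up 82.4 to 96.4% of the calls, 68.6 to 96.6% of open and 10 to 26.7% of closed peaks were methylated, 22.2 to 50% of closed peaks lay at a gene end and 83.3 to 94.5% of open methylated peaks were in no DMSO list. With 1 RNA-seq library left out, 2 to 28 genes with a closed end peak (3 without GSK replicate 1) and 0 to 31 genes with an open methylated peak were called lower, and DESeq2 called 34 and 58. With sequenced reads as library sizes, which moved the median of all peaks to -0.15 on the log2 scale, 252 peaks were open and 42 closed, 96.4% of open peaks were methylated and 97.5% of the open methylated were in no DMSO list, and peaks with at least 80% mCG had a median of 0.64 relative to all peaks. Total counts gave 88.8% open among the calls. Loess offsets gave 79.7% methylated and 83.1% in no DMSO list. FDR < 0.05 gave 831 open and 166 closed peaks, with 72.9% of open peaks methylated. A threshold of 50% mCG made 77.5% of open and 3.61% of closed peaks methylated, and the summed share of counts of methylated peaks 1.55-fold higher in GSK instead of 1.27-fold. Listing gave 93.7% where listed peaks had to cover 50% of the merged peak and 92.6% where they had a -log10 q of at least 5. In peaks listed at that level in at least 2 libraries, 256 were open (78.5% of calls), 75.5% of these were methylated and 76.4% of the methylated were in no DMSO list.

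The following were chosen after seeing the data. In peaks listed in all 5 libraries, 64 were open and 40 closed (61.5% open), 51.6% of open and 5% of closed peaks were methylated, 65% of closed peaks were at a gene end, 0% by construction were in no DMSO list, and peaks with at least 80% mCG had a median of 0.15. In peaks listed in at least 1 library of each group, 100 were open (62.1%), 48% of them methylated and 0% in no DMSO list. With all 4 groups in the fit, edgeR (planned) called 0 and 0 peaks, with a smallest adjusted p of 0.062, and DESeq2 called 104 and 2, with 98.1% open, 98.1% of open and 0% of closed peaks methylated, 100% of closed peaks at a gene end and 94.1% in no DMSO list. The cause was not tested. In the 5-library comparison DESeq2 called 669 and 99 peaks and RLE size factors 511 and 84.

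The replicate block gave 490 open and 79 closed peaks, of which 444 and 53 were also called without it, so that 53 of the 83 closed peaks kept their call. With the block, 6 closed peaks (7.69%) were methylated instead of 11, and 39.2% instead of 45.8% of closed peaks lay at a gene end. Zygotes were split between GSK and DMSO in each of the crosses, but neither the labels nor the methods say that a replicate number marks the same cross in both groups, and same-numbered libraries had correlations of deviations of 0.04 and 0.01. Of the 47 named called peaks, 9 were not called with the block, 2 with loess offsets, 1 with total counts and 0 with DESeq2 or RLE, 16 were called in every fit with 1 library left out, and none of these fits reversed a direction.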

Other observations

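Few peaks were centred in genes for small structural RNAs, and at 1.67% of all peaks called, few calls could fall among them. Those of tRNA genes (167 peaks) changed by -0.06 on the log2 scale at the median, and those of snRNA (22), rRNA (5) and snoRNA (5) genes had medians of -0.06, 0.08 and 0.02, with 0 open and 0 closed by edgeR in each. Of the 2720 peaks in lncRNA genes, 30 were open and 13 closed, and of the 143 in pseudogenes, 3 were open and 1 closed, where 1.44% of all merged peaks were open and 0.229% closed.

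The 4 libraries of F1 gastrulae, from parents given GSK or a morpholino, share no treatment of the embryo itself and were not tested here. The peaks open and methylated in GSK-treated embryos had median levels of 15.2 and 14.5 CPM in the F1 libraries of GSK parents and of 20.5 and 19.7 CPM in those of morpholino parents, on total counts. Closed unmethylated peaks had medians of 30.0005 and 33.9 CPM and of 23.96 and 24.8 CPM. Unmethylated peaks that were not called had medians of 17.7, 17.1, 16.9 and 15.4 CPM in these libraries.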
